A study of Mus musculus with 8 samples.

Results

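The 9 genes described here mark or build the primitive endoderm: Gata6, Gata4, Sox17, Sox7, Foxa2, Pdgfra, Cubn, Amn and Dab2. They were chosen by symbol as known regulators and markers of this lineage, and all 9 were found by Ensembl identifier among the 52550 genes listed and were kept among the 20749 genes tested. Their mRNA was followed in mouse embryonic stem cells (ESCs) labelled as control and in Dax1KO ESCs, which lack the nuclear receptor Dax1 (Nr0b1). Both genotypes were cultured on gelatin at passage 3 in either medium. Each of these 4 groups had 2 libraries. The 2i/LIF medium was N2B27 with the MEK inhibitor PD0325901 (1 µM), the GSK3 inhibitor CHIR99021 (3 µM) and LIF (10 ng/ml). The LIF/serum medium was DMEM with 15% FBS and LIF (10 ng/ml). Dax1KO ESCs had received Cas9 and the guide by lentivirus, were selected with zeocin and were picked as colonies in 2i/LIF. The study's functional experiments used 1 such clone and a line made from Dax1KO cells by re-expressing Dax1. The paper reports that re-expression rescued the lethality of the knockout. No library here is labelled as that line, so in these data clonal differences and the knockout cannot be told apart. The sources used here do not say whether the libraries of a group came from separate cultures, and P values then measure only the spread between these samples, which may be technical.

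In the blastocyst, the inner cell mass gives rise to the epiblast, from which ESCs are derived, and to the primitive endoderm, which later forms the visceral and parietal endoderm of the yolk sac. Gata6 opposes Nanog in this choice, and FGF signalling through MEK favours the primitive endoderm. Gata4, Sox17 and Sox7 act after Gata6, Pdgfra is the surface receptor by which the lineage is sorted, and Dab2 with the receptor proteins Cubn and Amn serves its epithelial polarity and uptake of nutrients.

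The promoters of Dab2, Cubn and Amn are shown because these genes belong to one endocytic system and are described together further on. RefSeq windows on GRCm38.p6, from 250 bases before to 50 bases after a transcription start, were used for 5 of the 9 genes (Dab2, Cubn, Amn, Pdgfra and Foxa2), with 8 windows in all. Capitals mark a match to GATAA, a core bound by GATA factors, on either strand, and the sequences run 5′ to 3′ along the gene.
Dab2, upstream start (chr15:6299539-6299838, plus strand): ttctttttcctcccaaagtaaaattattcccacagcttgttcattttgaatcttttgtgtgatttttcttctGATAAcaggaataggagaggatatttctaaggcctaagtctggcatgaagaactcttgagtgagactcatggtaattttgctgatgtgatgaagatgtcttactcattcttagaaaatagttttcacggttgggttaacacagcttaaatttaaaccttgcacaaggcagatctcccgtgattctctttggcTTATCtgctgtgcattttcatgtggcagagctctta
Dab2, downstream start (chr15:6386498-6386797, plus strand): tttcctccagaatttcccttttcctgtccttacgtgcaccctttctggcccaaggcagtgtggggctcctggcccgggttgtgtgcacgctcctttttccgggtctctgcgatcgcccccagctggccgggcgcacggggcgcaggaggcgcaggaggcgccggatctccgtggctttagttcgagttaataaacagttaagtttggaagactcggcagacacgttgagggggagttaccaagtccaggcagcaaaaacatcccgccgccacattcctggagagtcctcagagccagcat
Cubn (chr2:13491827-13492126, minus strand): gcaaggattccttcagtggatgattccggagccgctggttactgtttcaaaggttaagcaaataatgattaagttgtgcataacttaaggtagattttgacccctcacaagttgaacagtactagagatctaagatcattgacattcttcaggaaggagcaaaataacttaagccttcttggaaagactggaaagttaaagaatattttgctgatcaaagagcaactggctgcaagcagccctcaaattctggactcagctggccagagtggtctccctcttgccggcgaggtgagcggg
Amn (chr12:111270846-111271145, plus strand): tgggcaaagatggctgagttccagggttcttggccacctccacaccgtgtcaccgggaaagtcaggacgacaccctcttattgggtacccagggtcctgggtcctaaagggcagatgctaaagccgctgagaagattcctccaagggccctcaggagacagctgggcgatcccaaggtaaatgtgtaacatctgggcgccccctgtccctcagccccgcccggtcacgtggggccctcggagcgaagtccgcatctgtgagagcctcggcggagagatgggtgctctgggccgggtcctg
The upstream window of Dab2 held GATAA 178 bases before the start and its reverse complement 15 bases after it. The downstream window of Dab2 and the Cubn and Amn windows held no match. In all, GATAA was found in 2 of the 8 windows (the third window of Foxa2 was the other), against 25.4% of the 32851 RefSeq windows of the same length. The SOX core ACAAT, the FOXA core TGTTTAC and AAGGTCA, which NR5A and ESRR receptors bind, were in 0 of the 8 windows, against 31.0%, 3.65% and 4.72% of all windows. Such matches describe letters and do not show binding.

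Total counts per library ranged from 35911384 to 37286251, so raw counts can be read side by side. Dax1 itself was counted 456 and 300 times in control ESCs and 0 times in both Dax1KO libraries grown in 2i/LIF. For LIF/serum the counts were 5095 and 4689 in control and 14 and 6 in Dax1KO ESCs. The 5 ESC markers tested (Pou5f1, Sox2, Nanog, Zfp42, Esrrb) were present in every group. Their summed normalized counts were 141000 to 145000 in the control and 114000 to 117000 in Dax1KO libraries in 2i/LIF, and 122000 to 129000 against 111000 to 118000 in LIF/serum. The sums were lower in Dax1KO libraries in both media without overlap. Of all single genes tested, 26.8% were lower without overlap in 2i/LIF and 27.3% in LIF/serum. The median log2 fold changes of the 5 markers were -0.43 and -0.20, but in LIF/serum the estimates of Nanog (0.28) and Esrrb (0.17) were above 0. The lowest edgeR adjusted p among the 5 was 0.0649 in 2i/LIF and 0.0882 in LIF/serum, and the part of these genes in the results was not tested. A gene was called up- or downregulated when edgeR's quasi-likelihood test gave an adjusted P (Benjamini-Hochberg, over all genes tested) of no more than 0.05 and the fold change reached 1.2. Fold changes are given on the log2 scale with their standard error (SE).

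Dax1KO and control ESCs were first compared in LIF/serum. Of the 9 primitive endoderm genes, 6 were upregulated in Dax1KO ESCs (Gata6, Gata4, Sox17, Pdgfra, Amn and Dab2), against 8.87% of all genes tested. None was downregulated, against 5.78% of all genes. The fold changes of the 9 genes lay between 2.17 and 3.11, with a median log2 fold change of 1.38 against 0.01 over all genes. Both Dax1KO libraries exceeded both control libraries for each of the 9 genes, which was the case for 30.3% of all genes tested.

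**Figure D1:**
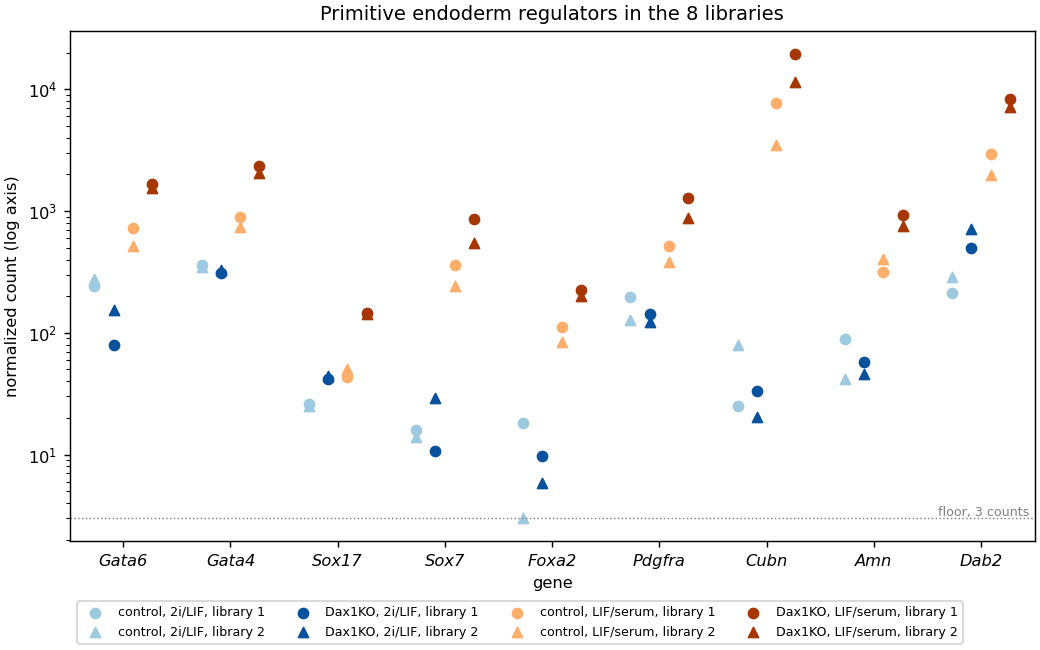
Normalized counts of the 9 genes (x axis) on a log axis (y axis) in each of the 8 libraries. Colours give the genotype and medium, circles library 1 and triangles library 2, and the dotted line marks 3 counts. In LIF/serum every Dax1KO point lies above both control points of the gene, while in 2i/LIF the points of several genes overlap.

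Among the GATA factors, Gata6 is the zinc finger factor that starts the lineage (ENSMUSG00000005836.8, chromosome 18). Its counts in LIF/serum were 681 and 485 in the control and 1740 and 1590 in Dax1KO libraries, a log2 fold change of 1.38 (SE 0.29, edgeR adjusted p = 0.0198). The spread between the control libraries of Gata6 was wider than that between its Dax1KO libraries. Gata4, its relative and successor (ENSMUSG00000021944.15, chromosome 14, 63198922 to 63271692, minus strand), had counts of 842 and 690 in the control and 2458 and 2122 in Dax1KO libraries. The log2 fold change of Gata4 was 1.44 (SE 0.15, edgeR adjusted p = 0.00221), with the smallest SE of the 9 genes.

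Sox17 and Sox7 are SOX factors of the F group that act in endoderm and in blood vessels. Sox17 (ENSMUSG00000025902.13, chromosome 1, 4490931 to 4497354, minus strand) had counts of 41 and 47 in the control and 152 and 146 in Dax1KO libraries. It was the factor with the fewest counts and a log2 fold change of 1.62 (SE 0.26, edgeR adjusted p = 0.00875). Sox7 (ENSMUSG00000063060.6, chromosome 14, 63943673 to 63950732, plus strand) lies 672 kb from Gata4. Its counts were 341 and 226 in the control and 895 and 563 in Dax1KO libraries. The groups did not overlap, but library 1 of Dax1KO ESCs exceeded library 2 by 1.56 times after scaling, and the log2 fold change of 1.22 (SE 0.38, edgeR adjusted p = 0.0674) did not pass the threshold. Foxa2, a forkhead factor of visceral and definitive endoderm (ENSMUSG00000037025.11, chromosome 2, 148042877 to 148046969, minus strand), had counts of 105 and 79 in the control and 235 and 204 in Dax1KO libraries. Its log2 fold change was 1.11 (95% interval -0.02 to 2.25, edgeR adjusted p = 0.170), and it did not pass either.

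Pdgfra encodes the alpha receptor for platelet-derived growth factor (ENSMUSG00000029231.15, chromosome 5, 75152292 to 75198215, plus strand). Counts of 487 and 355 in the control stood against 1342 and 905 in Dax1KO libraries, a log2 fold change of 1.28 (SE 0.28, edgeR adjusted p = 0.0228). The lower Dax1KO library was still well above the higher control library.

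Cubn, cubilin, is the large extracellular receptor that binds vitamin B12 with intrinsic factor and other ligands (ENSMUSG00000026726.10, chromosome 2, 13276338 to 13491813, minus strand). It had the most counts of the 9 genes in LIF/serum, 7265 and 3274 in the control and 20209 and 11726 in Dax1KO libraries. Its libraries also differed most, by 2.21 times in the control and 1.69 times in Dax1KO after scaling, and the log2 fold change of 1.46 (SE 0.46, edgeR adjusted p = 0.0731) did not pass. It was 2.14 without control library 1 and 0.99 without control library 2, and passed in neither fit. Amn, amnionless, anchors cubilin in the membrane (ENSMUSG00000021278.7, chromosome 12, 111271095 to 111276426, plus strand). Its counts were 299 and 382 in the control and 962 and 773 in Dax1KO libraries, with a log2 fold change of 1.21 (SE 0.32, edgeR adjusted p = 0.0401). Dab2, the clathrin adaptor that brings these receptors into the cell (ENSMUSG00000022150.16, chromosome 15, 6299788 to 6440712, plus strand), had counts of 2784 and 1868 in the control and 8640 and 7271 in Dax1KO libraries. Its log2 fold change of 1.63 (SE 0.25, edgeR adjusted p = 0.00678) was the highest of the 9.

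With 2 libraries per group, the number of upregulated genes rested on single libraries. It was 3 without control library 2 in LIF/serum (Dab2, Gata4, Sox17), 3 without Dax1KO library 1 (the same 3 genes), 3 without Dax1KO library 2 (Dab2, Gata4, Pdgfra), and 3 without the filter on low counts (Dab2, Gata4, Sox17). It was 5 without either Dax1KO library in 2i/LIF or without control library 1 in LIF/serum, each time with the call of Amn lost (edgeR adjusted p = 0.0693, 0.0678 and 0.155). DESeq2 gave 7, with Sox7 added. The number called over all genes, 3041, moved as well, to 1694, 1445 and 728 in the first 3 of these fits, 1842 without the filter, 1850, 1854 and 2032 in the fits with 5 and 4006 with DESeq2. Dab2 and Gata4 passed in every alternative run, and all 9 estimates stayed above 0.

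**Figure D2:**
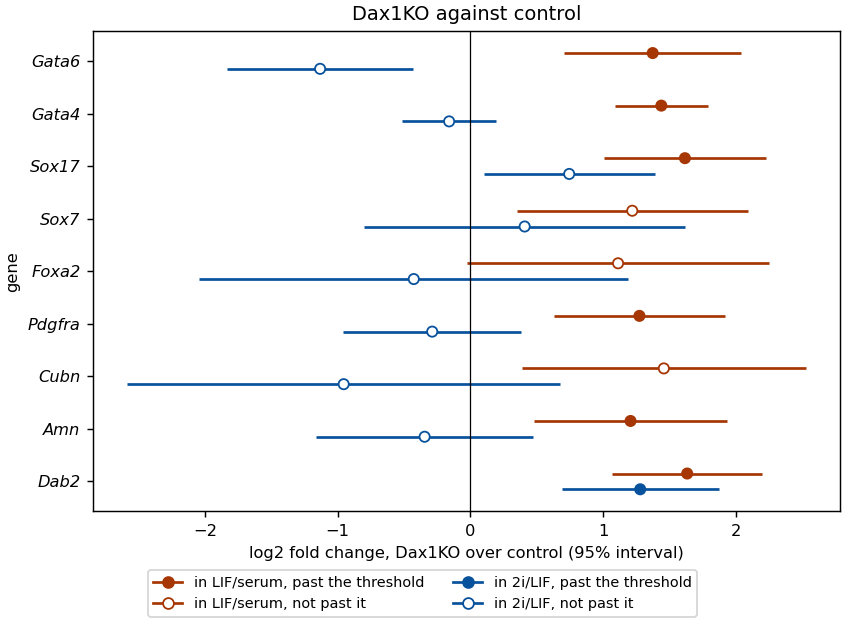
Log2 fold change of Dax1KO over control (x axis) for the 9 genes (y axis) in LIF/serum and in 2i/LIF, with 95% intervals from the fit. Filled points passed the threshold. The LIF/serum estimates lie between 1.11 and 1.63, and the 2i/LIF estimates between -1.13 and 1.28.

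Markers of other cell types were followed in LIF/serum, where 8.87% of all genes tested were upregulated and 5.78% downregulated. The marker lists were too short for a few calls to be read against these shares. The summed normalized counts of 6 fibroblast genes were 458 to 486 in the control and 1430 to 1500 in Dax1KO libraries, where Col1a1 and Thy1 were upregulated and Col3a1, Dcn and Lum stayed at no more than 3 counts. The sum of 5 mesoderm genes was 116 to 207 in the control and 453 to 457 in Dax1KO libraries, with Hand1 upregulated. The sum of 8 trophectoderm genes was 4040 to 4180 and 4850 to 5390, with Eomes and Krt18 upregulated and Tfap2c downregulated. The 5 neural genes summed to 5480 to 6090 and 4420 to 5380, with Pax6 downregulated. Their part in the result was not tested, and in bulk RNA more cells of a type and more RNA per cell cannot be told apart. Over the genes of chromosome 6 the median log2 fold change reached 0.52 for LIF/serum and 0.44 for 2i/LIF. Over all genes tested it was 0.01 and -0.01. None of the 9 genes lies on chromosome 6, and whether this shift bears on their levels was not tested.

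In 2i/LIF the estimates had either sign. Of the 9 genes only Dab2 was upregulated, against 1.51% of all genes tested, and 0 were downregulated, against 1.65%. The median log2 fold change of the 9 genes was -0.29. Dab2 had counts of 213 and 285 in the control and 511 and 732 in Dax1KO libraries. Its log2 fold change was 1.28 (SE 0.26, edgeR adjusted p = 0.0423), with both Dax1KO libraries above both control libraries. The call was lost, with 0 genes passing, when any 1 of the 4 libraries in 2i/LIF or either Dax1KO library in LIF/serum was left out, and also in a fit of the 2i/LIF libraries alone and without the filter on low counts.

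Gata6 lay on the other side of the control in this medium. Its counts were 240 and 275 in the control and 82 and 159 in Dax1KO libraries, a log2 fold change of -1.13 (95% interval -1.84 to -0.43, edgeR adjusted p = 0.0951). Both Dax1KO libraries were below both control libraries, as for 26.8% of all genes, and the value did not pass the threshold. DESeq2 called Gata6 downregulated together with Dab2 upregulated. Sox17 had 26 and 25 counts in the control and 43 and 45 in Dax1KO libraries, a log2 fold change of 0.75 (SE 0.28, edgeR adjusted p = 0.211). These 4 libraries did not overlap, as for 25.0% of all genes in that direction. Gata4, with 363 and 346 counts against 318 and 334, had a log2 fold change of -0.16 with a 95% interval from -0.52 to 0.20.

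The other 5 genes overlapped between genotypes in 2i/LIF. Pdgfra had 196 and 127 counts in the control and 147 and 125 in Dax1KO libraries. For Amn the counts were 89 and 42 against 59 and 47. Cubn was at 25 and 79 against 34 and 21. These genes of the receptor and uptake group had intervals of the log2 fold change that reached from -2.59 to 0.68 for Cubn, from -1.17 to 0.48 for Amn and from -0.96 to 0.38 for Pdgfra. Sox7 had 16 and 14 counts against 11 and 30, with an interval from -0.80 to 1.62. Foxa2 had 18 and 3 counts against 10 and 6, with an interval from -2.04 to 1.19. The summed trophectoderm markers were 4380 to 4940 in the control and 6460 to 6610 in Dax1KO libraries in this medium. Krt8 and Krt18 were upregulated, beside 1.51% of all genes tested higher and 1.65% lower. The summed fibroblast markers were 1860 to 2350 and 1240 to 1310, with Thy1 downregulated. The median log2 fold change of the 4 fibroblast genes tested was nevertheless 0.71. The sums were for mesoderm 272 to 428 and 172 to 238, and for neural ectoderm 5110 to 5170 and 4350 to 4370. Their part was not tested.

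The difference between the Dax1KO effects in the 2 media was tested in the same fit. It was positive for all 9 genes, and the Dax1KO effect in LIF/serum exceeded that in 2i/LIF for Gata6 and Gata4, 2 of 9 genes against 2.05% of all genes in that direction. For 0 of the 9 it was lower, against 0.824% of all genes. The difference was 2.51 for Gata6 (SE 0.42, edgeR adjusted p = 0.0286) and 1.60 for Gata4 (SE 0.22, edgeR adjusted p = 0.0161). Pdgfra had a difference of 1.56 (edgeR adjusted p = 0.0875), Amn 1.55 (edgeR adjusted p = 0.131) and Cubn 2.41 (edgeR adjusted p = 0.172), none of which passed. DESeq2 called the difference for Pdgfra (adjusted p = 0.00825) and Amn (adjusted p = 0.0290) as well. Without control library 1 in 2i/LIF the difference was 0.91 for Amn and 3.02 for Cubn. That of Foxa2 moved from 1.54 to -0.22 without this library, so its sign rested on it. For Cubn it was 1.34 without control library 2 in 2i/LIF and 3.09 without control library 1 in LIF/serum, and that of Sox7 moved from 0.81 to 1.71 without Dax1KO library 2 in 2i/LIF. For Dab2, the gene upregulated in both media, the difference was 0.35 with a 95% interval from -0.45 to 1.16. The count of 2 fell to 0 without either control library in 2i/LIF, without Dax1KO library 1 in 2i/LIF or without either Dax1KO library in LIF/serum. It fell to 1 without Dax1KO library 2 in 2i/LIF (Gata6), without control library 2 in LIF/serum (Gata4) and without the filter on low counts (Gata4).

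The medium itself separated the levels of these genes in both genotypes. In control ESCs all 9 genes were higher in LIF/serum than in 2i/LIF, against 16.5% of all genes called higher and 20.3% called lower. In Dax1KO ESCs all 9 were higher too, against 13.7% called higher and 15.2% called lower. These comparisons share libraries with those between genotypes and are given side by side. Cubn differed most, with a log2 fold change of 6.74 in control ESCs (SE 0.62, edgeR adjusted p = 0.000166) and 9.16 in Dax1KO ESCs (SE 0.69, edgeR adjusted p = 9.36e-05). Sox7 followed with 4.31 and 5.13. Foxa2 had log2 fold changes of 3.20 and 4.74. The values of some genes rested on single libraries. That of Foxa2 in control ESCs was 4.96 without library 1 in 2i/LIF and 2.47 without library 2. That of Cubn was 6.14 and 7.84 without these same libraries, and 6.06 without control library 1 in LIF/serum. Amn reached 3.10 without control library 1 in 2i/LIF, and Sox7 in Dax1KO ESCs 6.02 without Dax1KO library 2 in 2i/LIF. Dab2 had log2 fold changes of 3.31 and 3.66, and Amn of 2.46 and 4.01.

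The factors Gata6, Gata4 and Sox17 and the receptor Pdgfra had the lowest log2 fold changes between media in control ESCs. Gata6 had log2 fold changes of 1.26 in control and 3.77 in Dax1KO ESCs. Gata4 was 2.29-fold higher in control ESCs, with a log2 fold change of 2.80 in Dax1KO ESCs, and the log2 fold changes of Pdgfra were 1.47 and 3.03. Sox17 had the lowest of the 9, 0.87 in control ESCs (SE 0.28, edgeR adjusted p = 0.0415) and 1.74 in Dax1KO ESCs (SE 0.27, edgeR adjusted p = 0.0023). Leaving out any 1 library lost the call of Sox17 in control ESCs, as did DESeq2 and a fit of the control libraries alone, and the call of Gata6 was lost without library 1 of the control in either medium. In Dax1KO ESCs all 9 passed in every alternative. The 9 genes together took 0.00322% to 0.00402% of a library in 2i/LIF, 0.0206% to 0.0357% in control ESCs in LIF/serum and 0.0683% to 0.0987% in Dax1KO ESCs in LIF/serum.

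**Figure D3:**
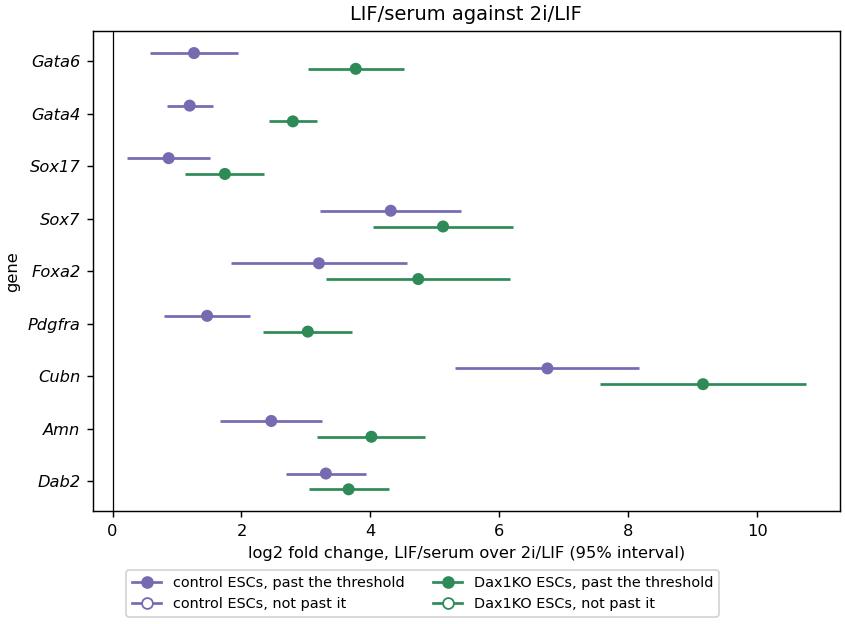
Log2 fold change of LIF/serum over 2i/LIF (x axis) for the 9 genes (y axis) in control and in Dax1KO ESCs, with 95% intervals. All points are filled, since all passed the threshold, and they range from 0.87 for Sox17 in control ESCs to 9.16 for Cubn in Dax1KO ESCs.

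The order of the genes by level was compared in CPM (a count's share of its library, scaled) per kb of exon, which allows for gene length. In Dax1KO ESCs in LIF/serum, Dab2 (29.2 ± 3.53, SD, n = 2) and Cubn (28.8 ± 10.8) were highest and their ranges overlapped. Gata4 (15.8 ± 1.63) and Amn (12.7 ± 1.94) followed, each apart from its neighbours. Gata6 (6.90 ± 0.433) and Sox7 (5.96 ± 1.91) overlapped, as did Pdgfra (3.02 ± 0.828) and Foxa2 (2.50 ± 0.247), and Sox17 (0.842 ± 0.0232) was lowest. In control ESCs in LIF/serum the order was led by Cubn (9.82 ± 5.25) and Dab2 (8.82 ± 2.45), and Sox17 (0.257 ± 0.0249) was again the lowest.

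In 2i/LIF the order was another. Gata4 was highest in control ESCs (2.47, 2.39 to 2.56 over n = 2), before Gata6 (1.08 ± 0.0876), Amn (0.970 ± 0.505) and Dab2 (0.921 ± 0.175), whose neighbouring ranges overlapped. Cubn was lowest there (0.0942 ± 0.0681), although its range overlapped with those of Foxa2 (0.121 ± 0.124) and Sox7 (0.124 ± 0.0135). In Dax1KO ESCs in 2i/LIF, Dab2 (2.28 ± 0.562) and Gata4 (2.25 ± 0.0678) led and overlapped, and Gata6 had a level of 0.498 ± 0.223. With the longest transcript in place of all exons, 5 of the 9 ranks changed in control ESCs in 2i/LIF, where Sox7 became the lowest, 2 in Dax1KO ESCs in 2i/LIF, 2 in control ESCs in LIF/serum and 0 in Dax1KO ESCs in LIF/serum.

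The libraries of a group differed in a shared direction for these genes in LIF/serum. Library 1 of Dax1KO ESCs was above library 2 for 9 of 9 genes, against 48.2% of all genes tested, and library 1 of control ESCs for 7 of 9, against 49.6%. The median log2 ratio of the 9 genes was 0.22 in Dax1KO and 0.45 in control libraries. In 2i/LIF library 1 was higher for 6 of 9 in control and 4 of 9 in Dax1KO ESCs.

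**Figure D4:**
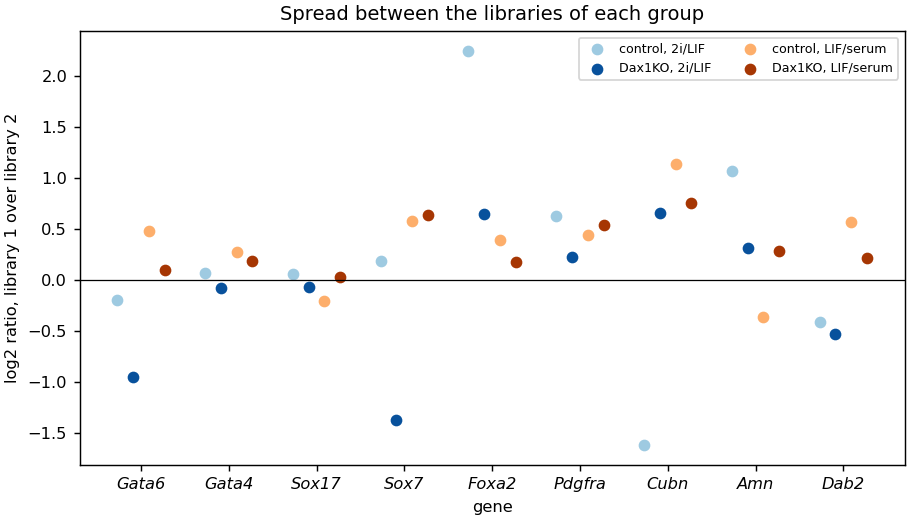
Log2 ratio of the normalized counts in library 1 over library 2 (y axis) for the 9 genes (x axis) in each group. In LIF/serum most points lie above 0, with Cubn at 1.14 in control and 0.76 in Dax1KO ESCs, and in 2i/LIF they lie on both sides, with Foxa2 at 2.25 in control ESCs.

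Genes that act with or after the 9 genes were described from lists set by hand. From each list up to 3 genes with the largest change in LIF/serum are named with their values, and the other called genes are named because few passed, after their values were seen. Of 14 genes of the basement membrane and parietal endoderm, 5 were upregulated in Dax1KO ESCs in LIF/serum and 0 downregulated, against 8.87% of all genes tested higher and 5.78% lower. Their median log2 fold change was 0.63. The collagen IV chains Col4a1 and Col4a2, which build the basement membrane, were 3.46-fold (edgeR adjusted p = 0.0163) and 2.83-fold higher (edgeR adjusted p = 0.0102). Srgn, the proteoglycan serglycin, had 2090 and 1579 counts in the control and 5286 and 5138 in Dax1KO libraries. Sparc and Snai1 were the other 2. The laminin chain Lamb1, with a log2 fold change of 0.44 (edgeR adjusted p = 0.129), did not pass.

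Of 12 tested genes of the visceral endoderm, 4 were upregulated and 0 downregulated in LIF/serum (8.87% and 5.78% of all genes), with a median of 0.69. Stra6, a receptor for retinol-binding protein, had 65 and 24 counts in the control and 309 and 317 in Dax1KO libraries, a log2 fold change of 2.67 (SE 0.46, edgeR adjusted p = 0.0101). The apolipoprotein gene Apom (1.69) and the nuclear receptor Hnf4a (0.74) were upregulated as well. Rbp4, which encodes retinol-binding protein, had 71 and 92 counts in the control and 161 and 198 in Dax1KO libraries and was the fourth (edgeR adjusted p = 0.0411). Afp, with at most 11 counts in any library, was not tested. Among 7 endocytic partners of cubilin and Dab2, 3 were upregulated and 0 downregulated, beside the same 8.87% and 5.78% of all genes. They were the receptor Lrp1 (1.02), the motor Myo6 (0.99) and the receptor chaperone Lrpap1 (0.57). Lrp2, megalin, the partner of cubilin, had 8572 and 4424 counts in the control and 18012 and 9956 in Dax1KO libraries, and its log2 fold change of 0.96 (edgeR adjusted p = 0.103) did not pass.

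**Figure D5:**
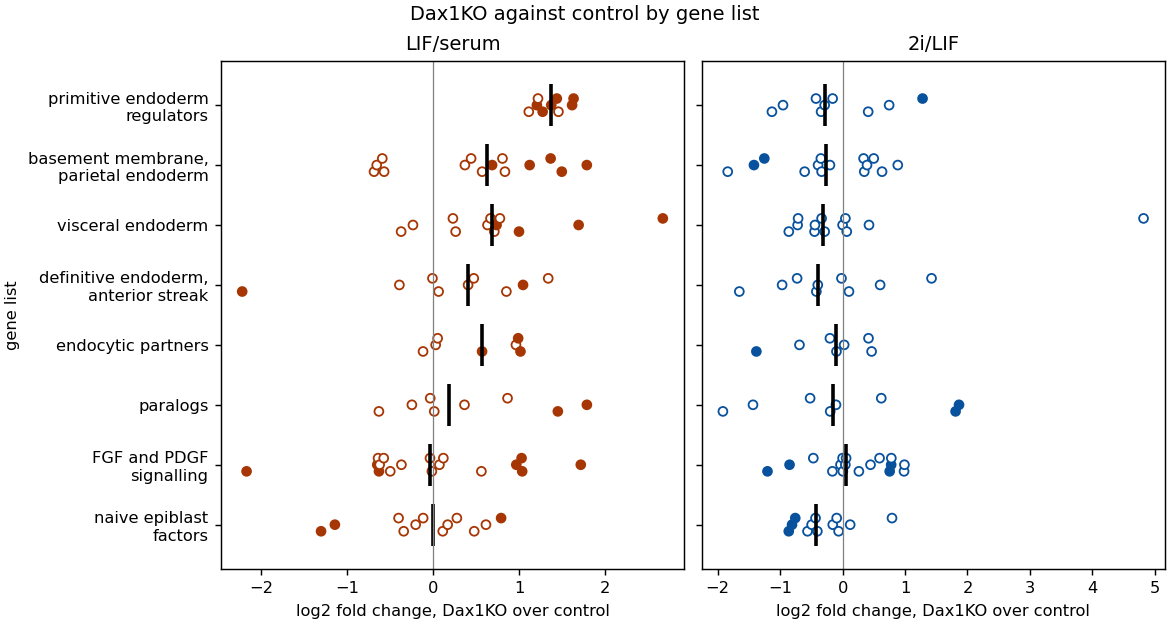
Log2 fold change of Dax1KO over control (x axis) in LIF/serum and in 2i/LIF for the tested genes of each list (y axis). Filled points passed the threshold and the bars are medians, which in LIF/serum run from 1.38 for the 9 regulators to -0.04 for FGF and PDGF signalling. The open point at 4.82 in 2i/LIF is Apoa1, with at most 22 counts in any library.

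Other lists held genes of neighbouring lineages and of signalling, and their counts in LIF/serum stand beside the same 8.87% of all genes higher and 5.78% lower. Of 9 tested genes of definitive endoderm and the anterior streak, Eomes was upregulated (log2 fold change 1.05) and the Nodal antagonist Lefty1 downregulated (-2.22), with 3325 and 3970 counts against 946 and 777, and Cer1 had 0 counts in all 8 libraries. With 1 gene in each direction, this list was near those shares. Of 8 tested paralogs of the 9 genes, Pdgfrb (1.79) and Gata1 (1.45) were upregulated. Of 17 genes of FGF and PDGF signalling, 4 were upregulated and 3 downregulated, with a median of -0.04. The receptors Fgfr3 (1.72) and Fgfr4 (1.03), the phosphatase Dusp4 (0.97) and the ETS factor Etv4 (1.04) were higher, while the ligand Pdgfc (-2.17) and the inhibitors Spry2 (-0.63) and Spred1 (-0.65) were lower. Fgf4, the ligand by which epiblast cells induce the primitive endoderm, had a log2 fold change of -0.01 with a 95% interval from -0.26 to 0.23, and that of Dusp6, a target of MEK signalling, was -0.64 (edgeR adjusted p = 0.0771). Of 12 naive epiblast factors, Klf4 was upregulated (0.79) and Klf2 (-1.14) and Nr5a2 (-1.30) were downregulated. The upregulated share was near that of all genes, and the downregulated share, which rests on 2 genes, lay above it. Nanog, the factor opposed to Gata6, lies on chromosome 6 and had 25621 and 24376 counts in the control and 34146 and 32550 in Dax1KO libraries, a log2 fold change of 0.28 (edgeR adjusted p = 0.111) that did not pass.

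In 2i/LIF, 1.51% of all genes were higher and 1.65% lower. Lamc1 and Srgn were downregulated among the 14 basement membrane and parietal genes, and 0 of the 12 visceral genes passed in either direction, with 0 of the 9 of definitive endoderm. For lists of this size, counts of 0 do not stand apart from those shares. Srgn had 108 and 106 counts in the control and 36 and 46 in Dax1KO libraries, a log2 fold change of -1.42 (SE 0.20, edgeR adjusted p = 0.0155), and the difference between media was 2.79 (edgeR adjusted p = 0.00481). Dab1, the neuronal relative of Dab2, was downregulated (-1.38) among the 7 endocytic partners, and of the 8 paralogs Gata2 (1.87) and Pdgfrb (1.81) were upregulated. Of the 17 FGF and PDGF genes Spry2 (0.78) and Etv4 (0.75) were upregulated and Pdgfc (-1.20) and Etv5 (-0.85) downregulated. Of the 12 naive factors Klf2, Prdm14 and Nr5a2 were downregulated. In lists of 7 to 17 genes any single call exceeds the shares of all genes, so no reading is drawn from these calls.

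The mean profile of the 9 genes over the 8 libraries was most like that of Dusp4 (Pearson's r of 0.995), Ctsh (0.994), F2r (0.994), Phc1 (0.994) and Ccdc92b (0.994), out of 4117 genes with sufficient level and spread. These libraries fall into 4 groups of 2, so r describes mostly the difference between media. Each of the 9 genes correlated with the mean of the other 8 at 0.838 (Sox17) to 0.983 (Sox7). Of the 5 genes, Ccdc92b, of no role stated here, and the phosphatase gene Dusp4 had log2 fold changes near 0.97 in Dax1KO ESCs in LIF/serum, and Phc1, a Polycomb gene on chromosome 6, one of 0.49.

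Some exon bases of the 9 genes lie in other annotated genes, and no use of strand in counting is stated. Cubn shares bases with Gm13270 on the opposite strand, whose highest count was 411, Gata6 with 1010001N08Rik (42) and Sox17 with Gm37587 (8). Gm37587 matched 24.8% of the longest Sox17 transcript, and reads of such stretches could be split between the genes.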

How the data were processed

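The authors deposited whole-number counts per gene for each library, without normalization. The submitters' processing notes name HISAT2 2.0.4, DESeq2 and mm10, and the counting tool and annotation are not given in the sources used here. Libraries were assigned to genotype, medium and replicate from their labels. Symbols came from GENCODE M21 (52403 of 52550 identifiers, 49035 with the same version). Counts were tested with edgeR 4.0.16 in R 4.3.3: filterByExpr (20749 genes), TMM, a quasi-likelihood fit with 1 mean per group over all 8 libraries, and Benjamini-Hochberg adjustment over all genes tested. Thresholds were an adjusted P of 0.05 and a fold change of 1.2, and for the difference between media the adjusted P alone. For normalized counts, each count was divided by its library's TMM-scaled size and multiplied by the mean of these sizes. The steps were tested on simulated data. Total counts were 35911384 to 37286251 per library. A gene with no more than 3 counts in each library of a group was at the floor, which covers counting error only. The biological coefficient of variation was 20.9%, and the 95% intervals use the spread shared across genes.

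The 9 genes, the lists and the motifs were chosen with earlier results of these data known. A few items are not reported here and were left out of the counts over the lists. Named from each list were up to 3 called genes with the largest change in LIF/serum, and Lamb1, Hnf4a, Lrp2, Nanog, Fgf4, Dusp6 and Nr0b1 whatever their values. Likeness was Pearson's r over log2 CPM (prior count 2) among genes with a mean of at least 1 and an SD of at least 0.5, and the 5 highest are named. Transcripts were compared with blastn 2.17.0 at 95% identity. Alternatives were DESeq2 1.42.0, RLE factors, no filter, separate fits, the replicate number as a block, each library left out, another gene length and a prior count of 0.5.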

Additional observations from a re-analysis of the deposited data

Results flagged for a closer look

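For 14 of 111 tested regulators, list genes, markers and other genes named, the Dax1KO effect differed between LIF/serum and 2i/LIF by the test of the difference in edgeR. It was higher in LIF/serum for 10 and lower for 4, against 2.05% and 0.824% of all genes. These genes were chosen with earlier results of these data known. Among the primitive endoderm regulators the log2 difference was 2.51 for Gata6 (edgeR adjusted p = 0.0286) and 1.60 for Gata4 (edgeR adjusted p = 0.0161). In Gata6 both Dax1KO libraries lay above both control libraries in LIF/serum and below them in 2i/LIF, although the change within 2i/LIF did not pass the threshold. In Gata4 the effect in 2i/LIF was -0.16, close to 0. Among the genes of the lists, the difference was positive for Col4a2 (1.89), Sparc (1.33), Srgn (2.79), Apom (2.41) and Kit (0.89), and negative for Lefty1 (-2.33), Gata2 (-1.85) and Spry2 (-1.41). Markers of other cell types differed as well, at 2.77 for Hand1, 2.47 for Thy1 and -2.68 for Pax6, and Ccdc92b at 1.16. Srgn and Thy1 passed the threshold within both media, downward in 2i/LIF and upward in LIF/serum, and Spry2 passed within both the other way round.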

How the results depend on the processing

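With RLE factors the numbers of regulators called were as in the fit reported. The count in LIF/serum (6) became 3 without the filter on low counts and 7 with DESeq2, and lay between 3 and 6 with 1 library left out. In 2i/LIF the count (1) became 0 without the filter, 0 with the separate fit, 2 with DESeq2, and 0 to 1 with 1 library left out. For the difference between media the count (2) became 1 without the filter, 4 with DESeq2, and 0 to 2 with 1 library left out. The medium counts (9 each) stayed between 7 and 9. With 1 library left out, the lone sample of its group was assumed to vary like the other groups. Genes reached opposite signs only in such fits and were never called there. In 2i/LIF the log2 fold changes ranged from -0.48 to 0.96 for Sox7, from -1.18 to 1.34 for Foxa2, from -0.55 to 0.061 for Pdgfra, from -1.56 to 0.11 for Cubn and from -0.77 to 0.30 for Amn, and the difference between media from -0.22 to 2.28 for Foxa2. The cause was not tested.

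The replicate number as a replicate block gave 6 genes in LIF/serum, 0 in 2i/LIF (Dab2, edgeR adjusted p = 0.0649) and 3 for the difference between media (Gata4, Gata6, Pdgfra). Deviations of same-numbered libraries correlated at 0.0796 in 2i/LIF and 0.108 in LIF/serum between genotypes, and the labels give no shared origin, so they were taken as numbers only.

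Over all genes, the count called in LIF/serum was 3041 and became 1842 without the filter, 1743 in the separate fit and 728 without Dax1KO library 2. In 2i/LIF it was 656, 121 without the filter, 1455 with DESeq2 and 38 without Dax1KO library 2. For the difference between media it was 596, 119 without the filter, 1510 with DESeq2 and 36 without Dax1KO library 2 in 2i/LIF. In 2i/LIF the SE of the Dax1KO effect was widest for Cubn (0.71), Foxa2 (0.70) and Sox7 (0.53).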
